A study of Mus musculus with 20 samples.

Results

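The 10 genes described here encode components of the AP-1 transcription factor and 3 further products of the immediate early response. They are Fos, Fosb, Fosl1 and Fosl2 of the Fos family, Jun, Junb and Jund of the Jun family, and Egr1, Ier2 and Ier3. They were chosen by name, with earlier results of these data known. Each was measured by its probe set with a single gene symbol and the highest mean over all arrays. All 10 of them were among the 15272 genes kept for testing, of 19938 genes with such a probe set. Each had exactly 1 probe set of this kind, which on 20 of 20 arrays was brighter than the 40th percentile of the probe sets there. Affymetrix whole-transcript arrays were used to profile RNA from 4 lines of embryo fibroblasts (MEFs) of the mouse, and values are given on the log2 scale throughout, so that a step of 1 is a doubling. The lines were Ubf fl/fl iMEFs and Ubf wt/wt iMEFs, immortalized with the SV40 T and t antigens, and primary Ubf fl/fl MEFs and Ubf wt/wt MEFs, all prepared from E14.5 embryos. Every line, control lines included, was homozygous for Er-cre (Er-cre+/+), a recombinase that 4-hydroxytamoxifen (4-HT) activates. All were given 50 nM 4-HT for 4 h before the medium was exchanged, and were harvested at 0, 24, 48, 72 and 96 h post 4-HT (pHT). UBF, the product of Ubf (symbol Ubtf), is the factor that RNA polymerase I needs on the ribosomal RNA genes.

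The series holds 20 arrays, 1 for each line and time, and their number limits the precision. Each genotype is represented by a single line per cell type. Genotype and line therefore cannot be told apart, either at a single time or in the change over time. A line's own course over time thus cannot be separated from Ubf loss in the late effect given below. Whether a line came from 1 embryo or 1 clone is not given in the sources used here. By the study's own account, 0 h precedes recombination and excision of the floxed exons was complete on the day after treatment, so that the early arrays (0 and 24 h) hold 1 time before the deletion and 1 after it. Ubtf itself lay between 10.01 and 10.62 in Ubf fl/fl iMEFs against 9.49 to 10.45 in Ubf wt/wt iMEFs, and between 10.53 and 10.65 in Ubf fl/fl MEFs against 10.22 to 10.75 in Ubf wt/wt MEFs. Which exons its probe set covers is not given in the sources used here, and these levels therefore check neither the deletion nor the labels. Of 11 fibroblast markers, 10 lay over the 40th percentile on every array. Their mean level was 9.88 to 10.65 in iMEFs and 12.01 to 12.33 in MEFs. Macrophage markers were measured in the MEFs, where the mean of 15 such genes was 9.69 to 10.27 in Ubf fl/fl cells and 8.73 to 9.53 in Ubf wt/wt cells, whereas in iMEFs it lay between 6.17 and 6.60, close to the 40th percentile of the arrays (6.16 to 6.42). In such bulk RNA fewer cells of a type and less RNA per cell cannot be told apart.

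AP-1 is a dimer of basic leucine zipper proteins. Fos proteins pair only with partners such as the Jun proteins, whereas Jun proteins also pair among themselves and with ATF proteins. In fibroblasts serum, growth factors and stress switch on Fos, Fosb, Jun, Junb, Egr1, Ier2 and Ier3 within minutes and without new protein synthesis, through MAP kinases that act on serum response factor and its ELK partners and on CREB and ATF proteins. Fosl1 and Fosl2 follow later and are partly under the control of AP-1 itself, and Jund is expressed more steadily in resting cells.

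Some promoters of these genes carry short elements of kinds that CREB, ATF or Jun proteins are known to bind. Sequences from 250 bases before to 50 bases after the start of transcription were taken from RefSeq (build GRCm38.p6), in which 7 of the 10 genes had an entry (Fos, Fosb, Fosl2, Jun, Junb, Jund and Ier3). Both strands were searched for TGACG, the core of the cyclic AMP response element, for TGACATCA, the ATF and Jun type element, for TGANTCA, which includes the consensus AP-1 site, and for TATAAA. No matches of different motifs overlapped. TGACG stood in 3 of the 7 promoters, against 20.8% of 32851 promoters of the same length. TATAAA stood in 2 of 7 (13.6% of all promoters), TGACATCA in 1 of 7 (3.62%) and TGANTCA in 0 of 7 (7.81%). No element of serum response factor or its ELK partners was searched for. The 4 promoters with a match are shown, with the matches in capitals and position 1 at the first transcribed base. The Fos window (chr12:85473640-85473939, plus strand) has TGACG starting at -129 and at -66 and TATAAA at -33. The Fosb window (chr7:19309996-19310295, minus strand) has TGACG at -60, the Jun window (chr4:95052173-95052472, minus strand) TGACATCA at -45, and the Junb window (chr8:84978699-84978998, minus strand) TGACG at -106 and TATAAA at 1. The TATAAA of Junb begins at the annotated start and not before it, and positions in that window depend on this start. A match describes letters and not binding.
Fos: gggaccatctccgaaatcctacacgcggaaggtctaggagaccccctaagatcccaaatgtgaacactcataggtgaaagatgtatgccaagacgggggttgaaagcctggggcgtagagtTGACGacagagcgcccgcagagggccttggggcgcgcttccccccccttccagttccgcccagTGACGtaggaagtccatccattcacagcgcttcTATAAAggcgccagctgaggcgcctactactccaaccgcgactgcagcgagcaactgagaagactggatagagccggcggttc
Fosb: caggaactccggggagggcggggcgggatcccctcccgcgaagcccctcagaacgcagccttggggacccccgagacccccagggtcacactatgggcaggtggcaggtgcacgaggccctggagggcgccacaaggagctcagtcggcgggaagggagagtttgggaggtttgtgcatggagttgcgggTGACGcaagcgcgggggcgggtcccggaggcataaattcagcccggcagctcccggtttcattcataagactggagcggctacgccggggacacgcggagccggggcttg
Jun: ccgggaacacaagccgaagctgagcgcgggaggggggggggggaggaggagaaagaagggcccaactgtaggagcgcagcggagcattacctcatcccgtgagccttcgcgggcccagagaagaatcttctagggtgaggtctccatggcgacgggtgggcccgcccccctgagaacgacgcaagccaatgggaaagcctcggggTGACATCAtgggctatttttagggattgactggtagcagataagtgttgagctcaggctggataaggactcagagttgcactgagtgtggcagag
Junb: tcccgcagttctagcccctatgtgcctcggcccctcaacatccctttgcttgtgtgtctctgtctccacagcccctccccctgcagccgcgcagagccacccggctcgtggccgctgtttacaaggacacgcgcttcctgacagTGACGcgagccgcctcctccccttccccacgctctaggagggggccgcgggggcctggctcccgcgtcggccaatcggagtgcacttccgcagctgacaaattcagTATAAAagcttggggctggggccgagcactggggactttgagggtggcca

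To establish how these genes responded after Ubf loss, the difference between genotypes was followed over time within each cell type. Early on, most of the 10 genes lay lower in Ubf fl/fl cells than in Ubf wt/wt cells of the same type and time, and later this gap had closed or turned. In iMEFs the Ubf fl/fl array was the lower one for 10, 9, 1, 0 and 3 of the 10 genes at 0, 24, 48, 72 and 96 h pHT, the 10 including Jund, which was level at 0 h (difference -2.3e-04). In MEFs it was the lower one for 9, 9, 5, 5 and 1 of them. The median difference over the 10 genes was -0.47 in iMEFs and -0.56 in MEFs over the early times, and 0.32 and 0.09 over the late times of 48 to 96 h. The late effect, that is the mean difference between genotypes at the late times less that at the early times, was positive for all 10 genes in iMEFs (46.4% of 15272 genes) and for all 10 in MEFs (59.2%). Over all genes 36.6% were positive in both cell types. The 10 genes were chosen with earlier results of these data known. Where the share of all genes stands beside their counts, here and below, it is therefore a description and not a test. For the counts of the lower array at each time no such share was computed. No single gene of the 10 passed the test in limma after Benjamini-Hochberg adjustment over all genes at 0.05, in either cell type or in their mean, as detailed below.

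**Figure D1:**
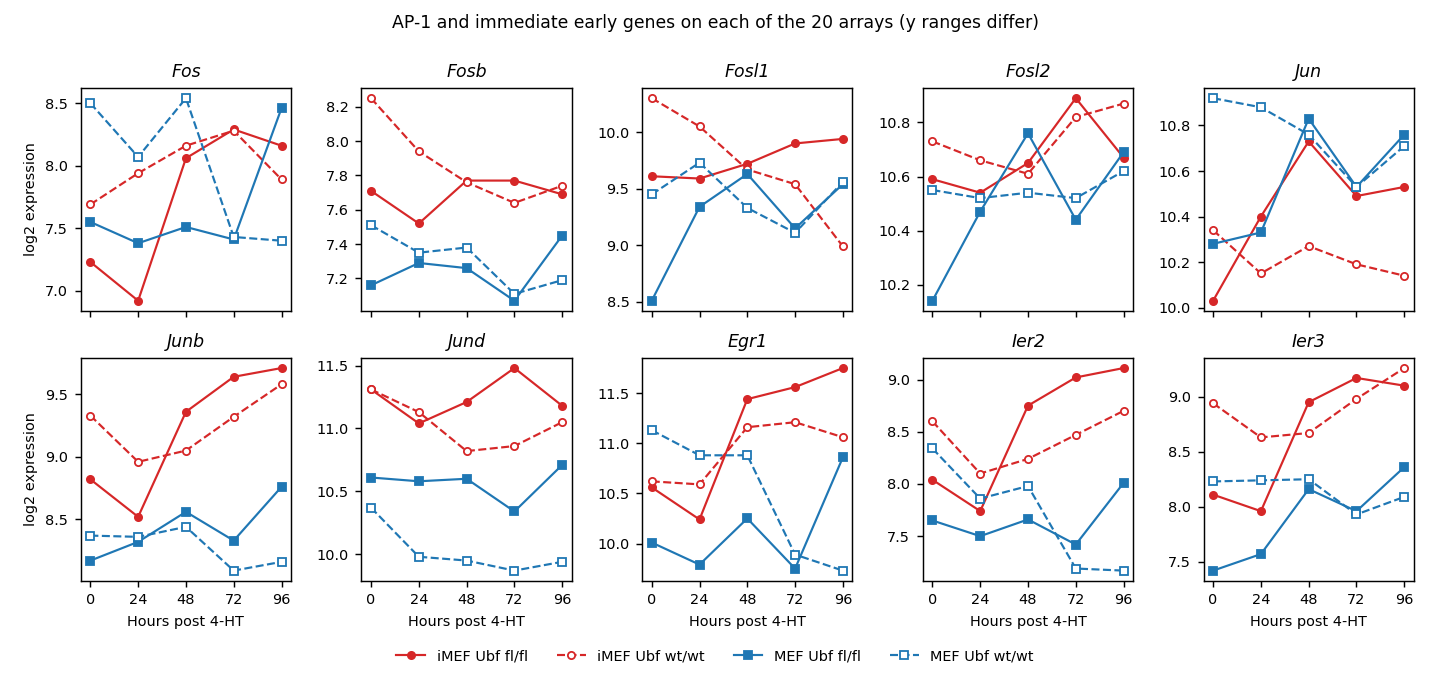
Log2 expression of each of the 10 genes (vertical axis, range differing between panels) against hours post 4-HT, 1 point per array, for iMEFs and MEFs of each genotype. In iMEFs the Ubf fl/fl line (filled circles) starts below the Ubf wt/wt line (open circles) for most genes and lies above it at 72 h for all 10.

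Fos, the founding Fos protein, moved over the widest range of the Fos family in Ubf fl/fl iMEFs. Its levels at 0, 24, 48, 72 and 96 h were 7.23, 6.92, 8.06, 8.29 and 8.16 in Ubf fl/fl iMEFs, against 7.69, 7.94, 8.16, 8.28 and 7.89 in Ubf wt/wt iMEFs. They were 7.55, 7.38, 7.51, 7.41 and 8.46 in Ubf fl/fl MEFs, against 8.50, 8.07, 8.54, 7.43 and 7.40 in Ubf wt/wt MEFs. In Ubf fl/fl iMEFs the 3 late arrays were all above both early ones, whereas in Ubf fl/fl MEFs only the 96 h array stood out, at a time when the Ubf wt/wt MEFs were at their lowest. The late effect was 0.79 ± 0.45 (SE) in iMEFs and 0.83 ± 0.45 in MEFs (limma adjusted p = 0.324 and 0.718), and that in MEFs was 0.30 without the 96 h arrays.

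Fosb, a Fos protein known from serum stimulation and from neurons, varied less. It read 7.71, 7.52, 7.77, 7.77 and 7.69 in Ubf fl/fl iMEFs, against 8.25, 7.94, 7.76, 7.64 and 7.74 in Ubf wt/wt iMEFs. In MEFs it read 7.16, 7.29, 7.26, 7.07 and 7.45 in Ubf fl/fl cells, against 7.51, 7.35, 7.38, 7.11 and 7.19 in Ubf wt/wt cells. The Ubf fl/fl iMEFs stayed within a narrow band while the Ubf wt/wt iMEFs were high at 0 and 24 h only. Its late effect of 0.51 ± 0.17 in iMEFs (limma adjusted p = 0.137) thus came mainly with a change of -0.38 in the Ubf wt/wt line, against 0.13 in the Ubf fl/fl line. In MEFs it was 0.24 ± 0.17 (adjusted p = 0.737).

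Fosl1 encodes FRA1, a Fos protein that lacks the strong activation domain of Fos and accumulates in growing and transformed cells. Its levels in Ubf fl/fl iMEFs were 9.61, 9.59, 9.72, 9.90 and 9.94, against 10.30, 10.05, 9.67, 9.54 and 8.99 in Ubf wt/wt iMEFs. The 2 lines ran in opposite directions, with a late minus early change of 0.25 in Ubf fl/fl cells and -0.77 in Ubf wt/wt cells. This gave the late effect with the highest value of the 10 genes in iMEFs, 1.03 ± 0.26 or 2.04-fold (limma adjusted p = 0.082). In MEFs the levels were 8.51, 9.34, 9.63, 9.15 and 9.54 in Ubf fl/fl cells, against 9.45, 9.73, 9.33, 9.11 and 9.56 in Ubf wt/wt cells, with an effect of 0.77 ± 0.26 (adjusted p = 0.706). Here the Ubf fl/fl array at 0 h was the lowest of all 20.

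Fosl2 encodes FRA2, the other Fos protein of this kind, and had the smallest late effect of the 10 genes in iMEFs. It lay between 10.54 and 10.89 in Ubf fl/fl iMEFs, against 10.61 to 10.87 in Ubf wt/wt iMEFs, and between 10.14 and 10.76 in Ubf fl/fl MEFs, against 10.52 to 10.62 in Ubf wt/wt MEFs. The ranges overlapped in both cell types, and the late effects were 0.10 ± 0.17 in iMEFs and 0.30 ± 0.17 in MEFs (limma adjusted p = 0.757 and 0.718). In iMEFs the 95% interval of the effect ran from -0.28 to 0.49.

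Of the Jun family, Jun, the Jun protein with the strongest activation domain, read 10.03, 10.40, 10.73, 10.49 and 10.53 in Ubf fl/fl iMEFs, against 10.34, 10.15, 10.27, 10.19 and 10.14 in Ubf wt/wt iMEFs. In MEFs it read 10.28, 10.33, 10.83, 10.53 and 10.76 in Ubf fl/fl cells, against 10.92, 10.88, 10.76, 10.53 and 10.71 in Ubf wt/wt cells. Jun was the only one of the 10 genes already higher in Ubf fl/fl than in Ubf wt/wt iMEFs at 24 h (0.25), and in MEFs its gap of -0.64 and -0.55 at the early times was followed by differences of -0.0041 to 0.07 at the late times. The late effect was 0.42 ± 0.18 in iMEFs and 0.64 ± 0.18 in MEFs (limma adjusted p = 0.205 and 0.699).

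Junb encodes a Jun protein that can oppose Jun in the control of cell cycle genes. Its levels in iMEFs were 8.82, 8.52, 9.36, 9.64 and 9.71 in Ubf fl/fl cells, against 9.33, 8.96, 9.05, 9.32 and 9.58 in Ubf wt/wt cells. In MEFs they were 8.17, 8.32, 8.56, 8.33 and 8.76 in Ubf fl/fl cells, against 8.37, 8.36, 8.44, 8.09 and 8.16 in Ubf wt/wt cells. Both iMEF lines were higher at 96 h than at 24 h, the Ubf fl/fl line by more, and the Ubf fl/fl array was the higher one at all 3 late times in both cell types. The late effect was 0.73 ± 0.18 in iMEFs, or 1.66-fold (limma adjusted p = 0.0724), and 0.44 ± 0.18 in MEFs (adjusted p = 0.706).

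Jund encodes the Jun protein of resting cells, and in MEFs it departed from the other genes. In Ubf fl/fl MEFs it read 10.61, 10.58, 10.60, 10.34 and 10.71, against 10.37, 9.98, 9.95, 9.87 and 9.94 in Ubf wt/wt MEFs, so that it was higher in Ubf fl/fl cells at 5 of 5 times, the first included. In iMEFs it read 11.31, 11.04, 11.21, 11.48 and 11.18 in Ubf fl/fl cells, against 11.31, 11.13, 10.82, 10.86 and 11.05 in Ubf wt/wt cells, where the lines were level at 0 h. The late effect was 0.43 ± 0.19 in iMEFs and 0.21 ± 0.19 in MEFs (limma adjusted p = 0.216 and 0.753). In Ubf fl/fl MEFs alone, without the control, the late minus early change was -0.04.

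Egr1 encodes a zinc finger factor that is among the fastest targets of serum response factor. In Ubf fl/fl iMEFs it read 10.56, 10.24, 11.44, 11.56 and 11.75, against 10.62, 10.59, 11.16, 11.21 and 11.06 in Ubf wt/wt iMEFs. In Ubf fl/fl MEFs it read 10.01, 9.79, 10.25, 9.75 and 10.86, against 11.13, 10.88, 10.88, 9.89 and 9.73 in Ubf wt/wt MEFs. Both iMEF lines were above their early levels from 48 h on. In MEFs the difference between genotypes was -1.12 at 0 h and 1.13 at 96 h, as the Ubf wt/wt line was high until 48 h and low at 72 and 96 h, and the Ubf fl/fl line reached its highest level at 96 h. The late effect was 0.64 ± 0.39 in iMEFs (limma adjusted p = 0.354) and 1.23 ± 0.39 or 2.34-fold in MEFs (adjusted p = 0.699), the highest value of the 10 genes there, and 0.73 in MEFs without the 96 h arrays.

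Ier2 encodes a small nuclear protein of the immediate early response, and Ier3 a stress-induced protein with roles in cell survival. Ier2 read 8.04, 7.74, 8.75, 9.02 and 9.11 in Ubf fl/fl iMEFs, against 8.60, 8.10, 8.24, 8.47 and 8.70 in Ubf wt/wt iMEFs, and 7.65, 7.50, 7.66, 7.42 and 8.01 in Ubf fl/fl MEFs, against 8.34, 7.86, 7.98, 7.19 and 7.17 in Ubf wt/wt MEFs. Ier3 read 8.11, 7.96, 8.95, 9.17 and 9.10 in Ubf fl/fl iMEFs, against 8.94, 8.63, 8.67, 8.98 and 9.26 in Ubf wt/wt iMEFs, and 7.42, 7.57, 8.16, 7.96 and 8.36 in Ubf fl/fl MEFs, against 8.23, 8.24, 8.25, 7.93 and 8.09 in Ubf wt/wt MEFs. In iMEFs the order of the genotypes turned between 24 and 48 h for both genes, with a difference of -0.36 at 24 h and 0.51 at 48 h for Ier2, and of -0.67 and 0.28 for Ier3. In MEFs the Ubf fl/fl line was below the Ubf wt/wt line at 0, 24 and 48 h for both genes and above it at 72 and 96 h. The late effect of Ier2 was 0.95 ± 0.28 in iMEFs and 0.77 ± 0.28 in MEFs (limma adjusted p = 0.0992 and 0.706). That of Ier3 was 0.85 ± 0.19 in iMEFs, or 1.80-fold, and 0.81 ± 0.19 in MEFs (adjusted p = 0.0675 and 0.636), the lowest adjusted p of the 10 genes in each cell type.

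**Figure D2:**
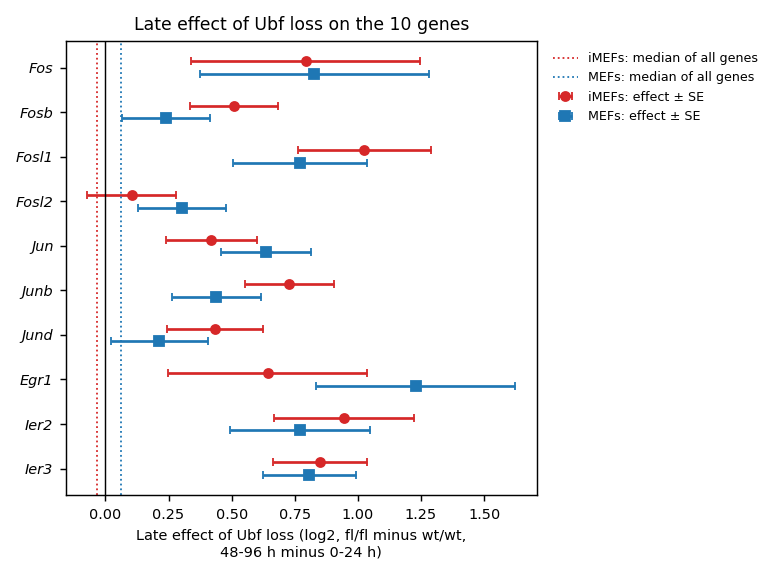
Late effect of Ubf loss on each gene (horizontal axis, log2, Ubf fl/fl minus Ubf wt/wt at 48 to 96 h less the same at 0 and 24 h), with circles for iMEFs, squares for MEFs and bars for the standard error from limma. All 20 effects lie above 0, with medians of 0.69 in iMEFs and 0.70 in MEFs (0.39 without the 96 h array of either MEF line), and the dotted lines mark the medians of all genes (-0.04 and 0.06).

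Set beside all genes tested, the median late effect of the 10 genes was 0.69 in iMEFs and 0.70 in MEFs, where the medians over 15272 genes were -0.04 and 0.06. Without the 96 h array of either MEF line the median of the 10 genes in MEFs was 0.39, with Fosb at 0.13 and Ier2 at 0.48. In limma 0 of the 10 genes were called in iMEFs (0.223% of all genes were called) and 0 in MEFs (0%), and 0 in the mean of both cell types (0%). At an unadjusted p under 0.05 the numbers were 7 of 10 in iMEFs, 6 of 10 in MEFs and 9 of 10 in the mean, all positive, where 6.53%, 3.96% and 8.09% of all genes had such a positive effect. The mean effect was between 0.20 ± 0.12 (Fosl2) and 0.94 ± 0.28 (Egr1), and the adjusted p from limma between 0.0775 (Ier3) and 0.327 (Fosl2). The calls were sensitive to single arrays: without the 96 h array of either MEF line, 4 genes (Fosl1, Junb, Ier2 and Ier3) passed in iMEFs with the same effects, and without the 48 h array of either MEF line, 6 genes passed in the mean.

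The differences between genotypes at the 3 late times were all higher than those at both early times for 9 of 10 genes in iMEFs, all but Fosl2 (15.8% of all genes), and for 6 of 10 in MEFs (19.3%). Seen within each line, the late minus early change was positive for 10 of 10 genes in Ubf fl/fl iMEFs, with a median of 0.63, and negative for 4 of 10 in Ubf wt/wt iMEFs, with a median of 0.10. In MEFs it was positive for 9 of 10 genes in the Ubf fl/fl line (median 0.33), and negative for 9 of 10 in the Ubf wt/wt line (median -0.24). The median change over all genes was -0.01 in Ubf fl/fl iMEFs and 0.03 in Ubf fl/fl MEFs. It was not computed for the Ubf wt/wt lines, and the share of all genes with a change in each direction was not computed for any line. For Egr1 the change was 1.18 in Ubf fl/fl iMEFs against 0.54 in Ubf wt/wt iMEFs, and 0.39 in Ubf fl/fl MEFs against -0.84 in Ubf wt/wt MEFs. The macrophage markers moved the same way in MEFs. Their mean level was 9.86 early and 10.04 late in the Ubf fl/fl line, and 9.50 early and 9.06 late in the Ubf wt/wt line. The late effect was positive for 14 of 15 of them (median 0.68), against 59.2% of all genes. In iMEFs, where these markers were near the 40th percentile, 12 of 15 were positive (median 0.23), against 46.4% of all genes. Their part in the result was not tested.

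**Figure D3:**
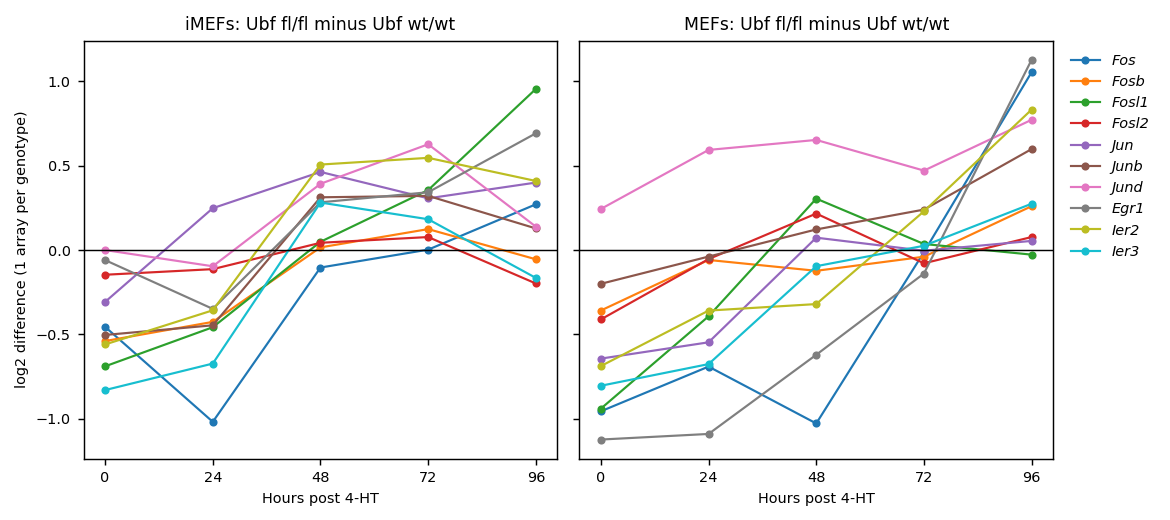
Difference in log2 expression, Ubf fl/fl minus Ubf wt/wt cells (vertical axis), against hours post 4-HT for each of the 10 genes, in iMEFs and in MEFs, 1 array per genotype and time. In iMEFs the Ubf fl/fl array is the lower one for 10 genes at 0 h (Jund by less than the plot can show) and for 0 at 72 h, and in MEFs Jund lies above 0 at all 5 times.

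The difference in late effect between the cell types did not pass for any of the 10 genes. In limma the difference, iMEFs minus MEFs, was between -0.59 and 0.29, with adjusted p of at least 0.814, and 0 genes were called (0% of all genes), also at an unadjusted p under 0.05 (7.44% of all genes). For Egr1 it was -0.59 (95% interval -1.82 to 0.64), for Fos -0.03 (-1.45 to 1.38), for Junb 0.29 (-0.26 to 0.84), for Fosl1 0.26 (-0.57 to 1.08) and for Ier2 0.18 (-0.69 to 1.04), so that these intervals reach a doubling or more for Fos, Egr1, Fosl1 and Ier2. Over all 5 times the line means of the genotypes did not pass as different for any gene after adjustment in limma (0 of 10, with 0% of all genes called), and 3 of 10 had an unadjusted p under 0.05 (6.45% of all genes). These 3 were Jund at 0.38 ± 0.12, Fos at -0.29 ± 0.08 and Ier3 at -0.25 ± 0.08, each with a limma adjusted p of 0.674.

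Time after treatment was then examined over the 4 lines, each against its own 0 h array. At 24, 48, 72 and 96 h, 0 of the 10 genes passed in limma, where 0%, 2.97%, 7.03% and 11.5% of all genes were called. At an unadjusted p under 0.05 the numbers were 0, 0, 0 and 2 of 10 (4.21%, 13.1%, 21.1% and 24.8% of all genes). The lowest adjusted p was that of Ier3 at 96 h (0.52 ± 0.21, adjusted p = 0.13). At 72 h the change from 0 h was 1.54 ± 0.59 higher in iMEFs than in MEFs for Egr1, 1.43 ± 0.58 for Fos and 1.13 ± 0.47 for Ier2 (limma adjusted p = 0.289, 0.322 and 0.333). The median difference of the 10 genes at 72 h was 0.34, but -0.06 without the Ubf fl/fl iMEFs and 0.07 without the Ubf wt/wt MEFs. At 96 h the gene with an unadjusted p under 0.05 was Fosl1, at -1.06 ± 0.48 (limma adjusted p = 0.281), in the other direction. None of the 10 genes passed for this difference at any time, against 0%, 0.229%, 1.2% and 3.39% of all genes, and 0, 0, 3 and 1 of 10 had an unadjusted p under 0.05 (0.818%, 5.35%, 13.4% and 17.1% of all genes).

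The cell types themselves differed for most of the genes. With the mean of the 5 times of each line as the unit, 7 of 10 genes were higher in iMEFs than in MEFs (limma adjusted p under 0.05, 35.1% of all genes were higher and 66.5% called in either direction). Junb was higher by 0.87 ± 0.09 (1.83-fold, adjusted p = 0.00455), Jund by 0.84 ± 0.12, Ier2 by 0.80 ± 0.09, Ier3 by 0.76 ± 0.08, Egr1 by 0.70 ± 0.16, Fosb by 0.50 ± 0.09 and Fosl1 by 0.40 ± 0.10 (adjusted p from 0.00452 to 0.0336). For Fosb and Jund all 10 iMEF arrays lay above all 10 MEF arrays, and for Junb 9 of 10 did. The share of all genes that separate in this way was not computed, and with 66.5% of all genes called it may be high. Jund ran from 10.82 to 11.48 with a median of 11.16 in iMEFs, and from 9.87 to 10.71 with a median of 10.35 in MEFs. Egr1 ran from 10.24 to 11.75 (median 11.11) in iMEFs and from 9.73 to 11.13 (median 10.13) in MEFs, and these ranges overlapped. In the same comparison 15 of 15 macrophage markers and 10 of 11 fibroblast markers were called lower in iMEFs (medians -3.01 and -1.51). Of the 11 fibroblast markers 0 were higher in iMEFs. Of all genes, 66.5% were called in either direction. The part of these markers in the result was not tested.

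**Figure D4:**
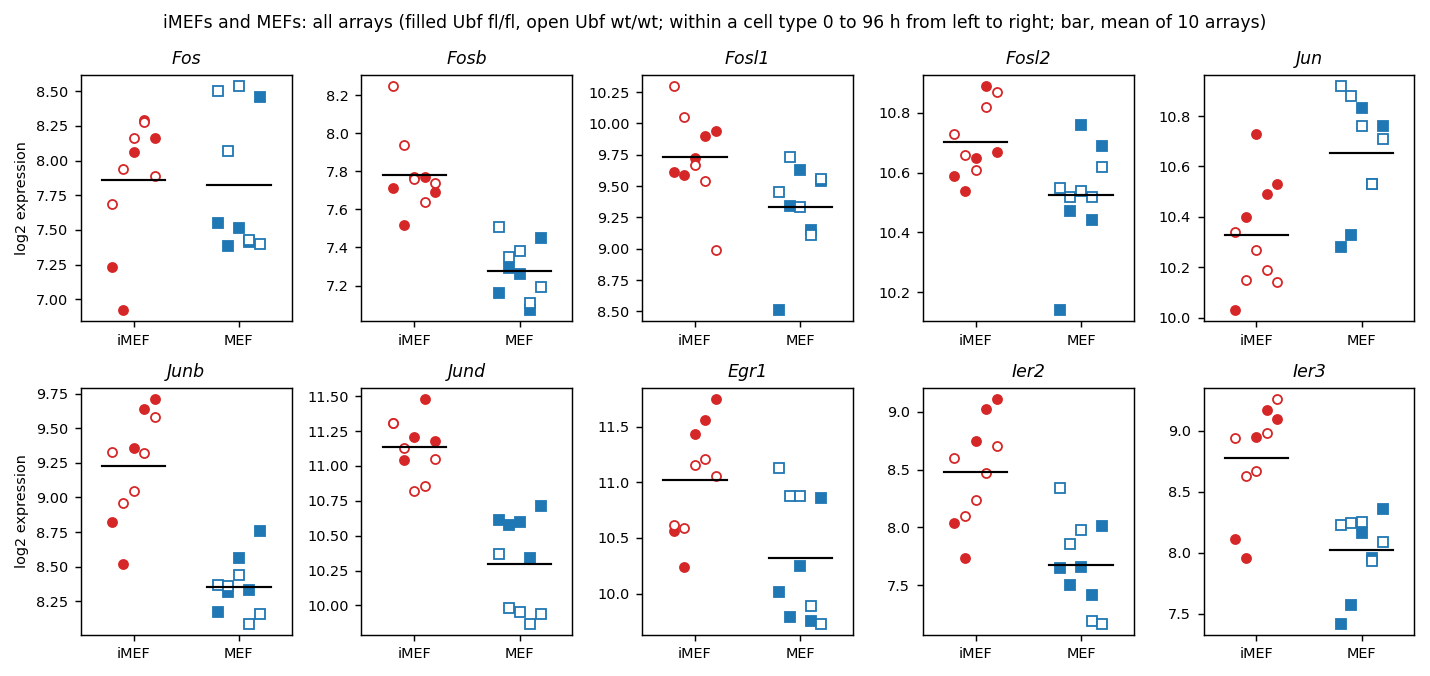
Log2 expression of the 10 genes (vertical axis, range differing between panels) on the 10 iMEF and 10 MEF arrays, with filled symbols for Ubf fl/fl, open symbols for Ubf wt/wt, times from left to right and a bar at the mean. The cell types separate completely for Fosb and Jund and overlap for Fos, which averaged 0.04 higher in iMEFs. The share of all genes that separate completely was not computed.

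Fos, Fosl2 and Jun did not pass this test. Fos differed by 0.04 ± 0.08 (limma adjusted p = 0.691) and Fosl2 by 0.18 ± 0.08 (adjusted p = 0.119), while Jun was at -0.32 ± 0.14 (adjusted p = 0.105), the 1 gene of the 10 with a lower mean in iMEFs. The balance also depended on time. On the 0 and 24 h arrays alone, Fos was lower in iMEFs by 0.43 (difference -0.43, adjusted p = 0.048), and Egr1 and Ier2 differed by 0.05 and 0.28 without passing. With 1 line left out and cell type as the only term, the lone line of a cell type is assumed to vary like the other lines. Junb, Ier2 and Ier3 passed whichever line was left out. Fosb failed without the Ubf fl/fl MEFs, Jund without either iMEF line, Egr1 without either Ubf fl/fl line, and Fosl1 without any line other than the Ubf wt/wt MEFs (adjusted p from 0.0512 to 0.198 in these cases). Without the Ubf fl/fl iMEFs Jun passed as lower in iMEFs (-0.44, limma adjusted p = 0.047), which makes 5 calls there. With all arrays set to 1 median over the one-symbol probe sets, the median difference of all genes moved up to 0.24, against 0.12 as deposited, and Fosl2 passed as well at 0.31 (adjusted p = 0.031).

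The order of the line means, each over 5 times (SD over times), differed between genes. For Jund it was 11.25 ± 0.17 in Ubf fl/fl iMEFs, 11.03 ± 0.20 in Ubf wt/wt iMEFs, 10.57 ± 0.14 in Ubf fl/fl MEFs and 10.02 ± 0.20 in Ubf wt/wt MEFs. Neighbours in this order within a cell type overlapped in their arrays, whereas the lowest iMEF array (10.82) lay above the highest MEF array (10.71). For Jun the line means were 10.44 ± 0.26 in Ubf fl/fl iMEFs, 10.22 ± 0.08 in Ubf wt/wt iMEFs, 10.55 ± 0.25 in Ubf fl/fl MEFs and 10.76 ± 0.15 in Ubf wt/wt MEFs, so that both MEF lines came above both iMEF lines, and each pair of neighbours in the order overlapped. For Fos they were 7.73 in Ubf fl/fl iMEFs, 7.99 in Ubf wt/wt iMEFs, 7.66 in Ubf fl/fl MEFs and 7.99 in Ubf wt/wt MEFs, and the arrays of all 4 lines overlapped (SD over times 0.23 to 0.61).

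The genes also moved with one another from array to array. After the mean of each line was subtracted, Pearson's r over the 20 arrays was positive for 45 of 45 pairs of the 10 genes, with a median of 0.52 and a range of 0.15 to 0.96. Without this subtraction 39 of the 45 were positive and 6, all of them pairs with Jun, were negative (Jun and Jund -0.54, Jun and Fosb -0.41, Jun and Junb -0.34). These arrays share lines, times and normalization, and the values are a description only. The share of positive pairs among all genes was not computed. Junb and Ier3 were closest (0.96), followed by Fos and Egr1 (0.95), Egr1 and Ier2 (0.91) and Junb and Ier2 (0.88). Fosb went mainly with Jund (0.83) and Fosl1 (0.63), and Fosl1 had the lowest values with Egr1 (0.15), Ier2 (0.16) and Fos (0.18). Outside the 10 genes, the highest r with Egr1 and with Fos was that of Ccn1, a secreted matrix protein and itself an immediate early gene (0.92 and 0.88). Egr1 was followed by Gm6034 (0.87) and Pax3 (0.85), and Fos by Aldh3b2 (0.86) and Pax3 (0.85). The 3 closest genes to Junb were H2-Q10, Dusp1 and Sox13 (0.93, 0.93 and 0.92), of which Dusp1 encodes a phosphatase that switches MAP kinases off, and those closest to Fosl1 were Lrrc32, Map3k6 and Hoxa7 (0.80, 0.77 and 0.77). Without subtraction of the line means these last 3 values were -0.05, 0.02 and 0.59. The value of Fos with Pax3 was then 0.30. Those of the other genes named here with Fos, Egr1 and Junb were between 0.70 and 0.98.

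**Figure D5:**
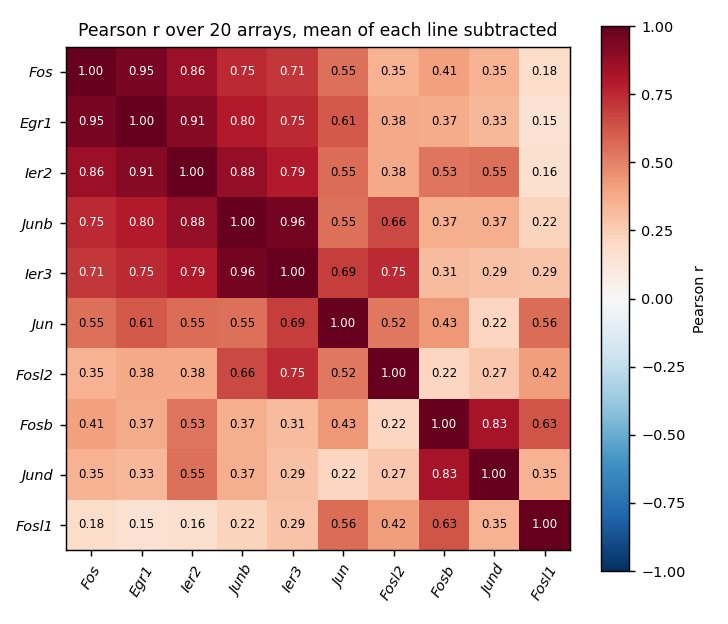
Pearson's r for each pair of the 10 genes over 20 arrays after subtraction of each line's mean (colour scale from -1 to 1, value in each cell). Fos, Egr1, Ier2, Junb and Ier3 form a block of values between 0.71 and 0.96, and Fosl1 has its lowest value with Egr1 (0.15).

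Other immediate early genes leaned the same way. Of 34 such genes tested, 26 had a positive late effect in iMEFs (46.4% of all genes) and 28 in MEFs (59.2%), with medians of 0.31 and 0.28. In limma 0 of them passed in either cell type, where 0.223% and 0% of all genes were called. The highest values were those of Klf2, a zinc finger factor, in iMEFs (0.77 ± 0.26, limma adjusted p = 0.137), and of Egr2, a relative of Egr1, in MEFs (0.98 ± 0.32, adjusted p = 0.703). Egr2 in Ubf fl/fl MEFs read 7.68, 7.43, 7.67, 7.22 and 7.69, against 8.64, 8.38, 8.30, 7.24 and 6.98 in Ubf wt/wt MEFs, so that the change lay in the Ubf wt/wt line. Over the 4 lines Btg2, an antiproliferative gene, rose at 48, 72 and 96 h by 0.83 ± 0.14, 0.68 ± 0.14 and 0.80 ± 0.14 (limma adjusted p from 0.00276 to 0.00959). On average over the 4 lines Cebpd rose by 0.85 ± 0.21 at 96 h and Dusp1 by 0.60 ± 0.14, and Rhob, a small GTPase, fell by 0.51 ± 0.14. Rhob did not fall in Ubf fl/fl MEFs (9.72 at 0 h and 9.98 at 96 h). Dusp1 did not rise in Ubf wt/wt MEFs (11.29 and 11.24). For both genes the other lines went with the average. In iMEFs against MEFs 16 of the 34 were higher and 10 lower (of all genes, 35.1% were higher and 66.5% were called in either direction), the lower ones led by Klf6 at -1.66, Zfp36l1 at -1.46, Plk2 at -1.26 and Klf4 at -1.22.

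Partners, regulators and targets of AP-1 gave 0 calls for the late effect in limma (of all genes, 0.223% were called in iMEFs and 0% in MEFs). Of 13 other basic leucine zipper genes tested (of 15 listed), 9 were positive in iMEFs (46.4% of all genes) and 8 in MEFs (59.2%), with medians of 0.09 and 0.11. The highest were Maff, a small Maf protein, in iMEFs (0.66 ± 0.20, adjusted p = 0.103) and Atf3 in MEFs (0.55 ± 0.28, adjusted p = 0.718). Jdp2, which encodes a repressor of AP-1, fell by 0.43 ± 0.11 at 96 h over the 4 lines (adjusted p = 0.0221). In iMEFs against MEFs 4 of the 13 were higher (Batf3 by 0.94, Mafa by 0.70, Maff by 0.67 and Batf2 by 0.35) and 0 lower, against 35.1% of all genes higher and 66.5% called in either direction.

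Of 18 upstream kinases and transcription factors tested (of 22 listed), 7 were positive in iMEFs (46.4% of all genes) and 9 in MEFs (59.2%). The largest values were -1.005 ± 0.301 in iMEFs for Map2k4, a kinase of the JNK pathway (limma adjusted p = 0.104), and 0.66 ± 0.19 in MEFs for Mef2d, a MADS-box factor (adjusted p = 0.699). On average over the 4 lines Map2k1 rose by 0.43 ± 0.10 at 48 h and Map2k2 fell by 0.41 ± 0.11 at 96 h, both kinases directly above ERK. Map2k2 did not fall in Ubf fl/fl MEFs (10.26 at 0 h and 10.36 at 96 h). In iMEFs against MEFs 4 of the 18 were higher and 10 lower (35.1% of all genes higher, 66.5% called), the lower ones led by the ERK-activated kinase Rps6ka3 (-2.12), Map2k4 (-1.59), Mef2a (-1.44) and Mapk9 (-1.19). Among 4 genes that restrain Egr or AP-1 activity, Nab2, a corepressor of Egr proteins that they themselves induce, fell by 0.36 ± 0.10 at 72 h and by 0.48 ± 0.10 at 96 h (limma adjusted p = 0.0475 and 0.00928). Nab1 and Tob1 were lower in iMEFs by 1.52 and 0.84 (differences of -1.52 and -0.84). The late effect of Nab1 was -0.71 ± 0.42 in iMEFs and -0.31 ± 0.42 in MEFs (adjusted p = 0.336 and 0.817).

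Of 15 genes known as AP-1 targets in fibroblasts that were tested (of 20 listed), 10 had a positive late effect in iMEFs (46.4% of all genes) and 11 in MEFs (59.2%). The medians were 0.16 and 0.27. Lif, a cytokine, was the highest in iMEFs (0.87 ± 0.18, limma adjusted p = 0.0638), with 7.87, 7.96, 8.70, 8.66 and 8.64 in Ubf fl/fl cells against 8.14, 8.03, 8.15, 7.96 and 7.80 in Ubf wt/wt cells. From 48 h on the Ubf fl/fl iMEFs were above every Ubf wt/wt iMEF array. In MEFs Mmp13, the collagenase, was highest (0.96 ± 0.26, adjusted p = 0.699), with 7.57, 7.95, 10.61, 11.66 and 10.78 in Ubf fl/fl cells against 6.98, 8.12, 9.24, 10.31 and 10.01 in Ubf wt/wt cells. It stood high in both MEF lines at 48, 72 and 96 h, and between 5.79 and 6.60 on all iMEF arrays, near the 40th percentile. Over the 4 lines Mmp13 rose by 1.83 ± 0.23 at 72 h (adjusted p = 6.47e-04), Mmp3, the stromelysin, by 1.37 ± 0.21 and Mmp10 by 0.68 ± 0.15, and the rise of Mmp13 differed between cell types (iMEFs minus MEFs -3.77 ± 0.45, adjusted p = 0.00164). These rises are averages over both cell types. From 0 to 72 h Mmp13 went from 6.27 to 6.57 in Ubf fl/fl iMEFs and from 6.60 to 6.17 in Ubf wt/wt iMEFs. Mmp10 lay between 6.12 and 6.45 on the iMEF arrays, also near the 40th percentile. At 96 h the growth factor Ereg rose by 0.85 ± 0.23. In iMEFs against MEFs 3 of the 15 were higher and 9 lower (35.1% of all genes higher, 66.5% called), the lower ones led by the matrix proteoglycan Dcn (-5.71), Mmp3 (-3.64), Mmp13 (-3.08) and Fgf7 (-1.47). Mmp3, like Mmp13, was near the 40th percentile on the iMEF arrays (5.68 to 6.43).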

How the data were processed

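RNA of 20 samples (4 fibroblast lines at 5 times, 1 array each) was hybridised to Affymetrix arrays after extraction with acid phenol and column purification. For each array and probe set the authors deposited a log2 expression value, obtained by RMA-sketch normalization of all arrays together, and the submitters' processing notes name Affymetrix Power Tools 1.14.4. Gene symbols were taken from annotation of the Mouse Gene 1.0 ST array, while the array type given in the study's methods is Mouse Gene 2.0 ST. The genome build of the probe sets is not given in the sources used here. Of 35556 probe sets, 21789 carried 1 symbol, 1621 several and 12146 were not listed, and the last 2 kinds were not used. A gene was kept if it lay over the 40th percentile of the array on at least 2 arrays.

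Tests were run with limma 3.58.1 (lmFit, eBayes) in R 4.3.3 over 15272 genes, with the Benjamini-Hochberg adjustment and a threshold of 0.05. The model of the late effect included the line, the time (separately per cell type) and the genotype at late times (separately per cell type) (6 residual degrees of freedom plus 4.78 from the prior). The model of time had terms for line and for time within cell type (8 plus 4.58), and cell type and genotype were tested on the 4 line means (1 plus 2.79). Each condition has 1 array, so p-values measure the spread around these models, and whether arrays of a line came from separate cultures is not stated. Simulated data with independent noise were used only to check the median size of added changes. The rate of false calls was not judged from them. Plots were drawn with matplotlib 3.10.9 in Python 3.11.15.

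The 10 genes and the gene lists were chosen with earlier results of these data known. In each other list up to 4 genes past the threshold were named per comparison, or the 1 with the largest effect in the late comparisons where none passed. For Fos, Egr1, Fosl1 and Junb the 3 genes with the highest r were named. Listed genes with no one-symbol probe set here were not analysed here. Alternatives were other scalings, filters, probe set rules, variance settings, models and times, and single arrays or lines left out.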

Additional observations from a re-analysis of the deposited data

Results flagged for a closer look

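None of the 10 genes met a rule for a closer look. Among the genes named from the other lists, the change from 0 h differed between cell types by a test of the difference itself (iMEFs minus MEFs, limma adjusted p under 0.05) in 11 cases, and the difference was negative, that is lower in iMEFs, in all but 1. For Mmp13 it was -2.92, -3.77 and -3.38 at 48, 72 and 96 h (adjusted p = 0.025, 0.00164 and 0.00377). Both MEF lines had lower levels of Mmp13 at 0 and 24 h than later, and the iMEFs were near the 40th percentile throughout. For Mmp3, which lay between 5.68 and 6.43 on the iMEF arrays and thus also near that percentile, the difference was -2.45 at 72 h and -2.44 at 96 h, and for Fgf7, a growth factor for epithelial cells, -1.72 and -1.56 at the same times. At 96 h it was -1.51 for Plau, the urokinase, which read 7.65 in Ubf fl/fl iMEFs against 8.27 in Ubf wt/wt iMEFs, and 9.07 in Ubf fl/fl MEFs against 9.81 in Ubf wt/wt MEFs. Also at 96 h it was -1.29 for Klf4 and -1.11 for Mcl1, an antiapoptotic gene, and 1.135 for Gadd45b, a stress response gene (adjusted p = 0.00998, 0.0453 and 0.0369). Gadd45b read 10.70 in Ubf fl/fl iMEFs and 11.52 in Ubf wt/wt iMEFs at 96 h, against 9.60 in Ubf fl/fl MEFs and 9.31 in Ubf wt/wt MEFs.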

How the results depend on the processing

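The count of the 10 genes past the threshold for the late effect was 0 in iMEFs, in MEFs and in their mean, and the alternatives moved it as follows. With Ubf fl/fl cells alone, without the control, it was 1 in iMEFs, 1 in MEFs and 4 in the mean. It was 1 in iMEFs with time common to both cell types, 3 in iMEFs without the 96 h arrays and 2 in the mean without the 48 h arrays. Leaving out single arrays gave 0 to 4 in iMEFs (4 without the 96 h array of either MEF line), 0 to 6 in the mean (6 without the 48 h array of either MEF line) and 0 in MEFs. Over all genes the count moved between 0 and 1663 in iMEFs, 0 and 561 in MEFs and 0 and 754 in the mean. An alternative added after the data were seen counted positive effects: 10 of 10 in iMEFs under every alternative run, and 9 to 10 in MEFs. The 9 came with Ubf fl/fl cells alone, where Jund was at -0.043 and, of the other genes, Egr2 at -0.026. For Nab1 in MEFs the effect was 0.16 without the 96 h arrays, and -0.69 to 0.16 without single arrays (0.16 without that of either MEF line at 96 h). For iMEFs against MEFs the count of 7 ran from 6 to 9 under other settings and from 4 to 7 with 1 line left out (4 without Ubf fl/fl MEFs, and 5, Jun as lower among them, without Ubf fl/fl iMEFs). The 6 on the 0 and 24 h arrays are 5 of the 7 (Fosb, Fosl1, Junb, Jund and Ier3) and Fos, called lower. Fos lay between -0.12 and 0.20 with 1 line left out (-0.092 without Ubf wt/wt iMEFs and -0.12 without Ubf fl/fl MEFs) and at -0.43 on the 0 and 24 h arrays. For the line means of Ubf fl/fl against Ubf wt/wt, the count of 0 became 1 with arrays as units and the line as a random block. The cause of these changes was not tested. No paired analysis was possible because the labels carry no replicate numbers to pair by. The model of the late effect itself compares the genotypes at the same times of a cell type. With 1 line per genotype and cell type and 1 array per time, effects of several standard errors could go without a call. An example is the late effect of Ier3 in MEFs, 0.81 ± 0.19 (limma adjusted p = 0.636). A gene without a call is thus not shown to be unchanged.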
